A study of Homo sapiens with 18 samples.

Results

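Open chromatin was described here for the stretch of human chromosome 6 between 40 and 100 Mb, in HEK293T cells with and without the UBR7 gene. The peaks of 4 ATAC-seq libraries were merged into a union of 59275 regions wherever they shared at least 1 bp, and the 871 regions on chromosome 6 with a midpoint between 40 and 100 Mb were taken. The stretch was chosen by the ATAC peak counts themselves, since UBR7KO libraries held more peaks there than parental ones, so these counts describe that choice and are given with no test. The study as a whole concerned UBR7 as a chaperone of histone H3. The UBR7KO cells carry a CRISPR-Cas9 disruption of UBR7, and the parental cells are the unedited HEK293T line, a line grown from human embryonic kidney that carries the SV40 large T antigen. ATAC-seq was made from 2 UBR7KO and 2 parental libraries, and RNA-seq from 3 UBR7KO and 3 parental libraries. Of the UBR7KO RNA libraries, KO1-1 and KO1-2 come from line KO1 and share date codes with parental 1 and parental 2. KO2-1 is the single library of line KO2, and it was set beside parental 3 because neither carries a date. The label code of KO2-1 also appears in the names of the UBR7KO ATAC peak lists, so the line used for ATAC is inferred and not given. Nothing states that libraries of a group are separate cultures, so every p-value below measures only a spread between libraries that may be technical.

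ATAC-seq cuts DNA with a transposase wherever it is not wrapped tightly by nucleosomes, and a peak marks a place where cuts pile up. In most human cells such places are the starts of active genes and, farther away, enhancers, which differ more between cell states. The stretch spans the centromere of chromosome 6 and holds dense clusters of genes as well as parts with hardly any.

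Promoters of 4 genes are printed because each carried a main result: IBTK and POU3F2 had the largest positive differences in RNA between the knockout lines among the genes called, the start of ELOVL5 held one of the highest −log10 q values among regions found in all 4 libraries, and EEF1A1 is the translation factor gene named below for its RNA. Each is the 250 bases before the annotated start, read 5′ to 3′ on the gene's strand, from RefSeq (GRCh38.p14). Capitals mark matches, on either strand, to the GC box GGGCGG, to CCAAT, to TATAAA, to the ETS core CCGGAA and to the E-box CACGTG.
IBTK (chr6:82247745-82247994, minus strand): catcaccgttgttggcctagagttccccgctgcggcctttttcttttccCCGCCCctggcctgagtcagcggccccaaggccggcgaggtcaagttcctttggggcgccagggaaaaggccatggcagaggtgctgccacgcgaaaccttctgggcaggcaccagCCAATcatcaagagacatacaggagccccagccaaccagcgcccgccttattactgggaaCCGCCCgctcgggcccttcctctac
POU3F2 (chr6:98834324-98834573, plus strand): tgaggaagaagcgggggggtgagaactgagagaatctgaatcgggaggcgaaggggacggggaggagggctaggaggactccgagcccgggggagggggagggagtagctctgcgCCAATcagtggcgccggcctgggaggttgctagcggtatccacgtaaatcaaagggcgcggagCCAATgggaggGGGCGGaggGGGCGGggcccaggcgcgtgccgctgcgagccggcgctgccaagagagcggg
ELOVL5 (chr6:53348951-53349200, minus strand): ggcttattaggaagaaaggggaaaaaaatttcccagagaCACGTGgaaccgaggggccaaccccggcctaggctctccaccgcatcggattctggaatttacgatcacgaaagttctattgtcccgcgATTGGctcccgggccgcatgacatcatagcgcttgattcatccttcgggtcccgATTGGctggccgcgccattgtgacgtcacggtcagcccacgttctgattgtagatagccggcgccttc
EEF1A1 (chr6:73521033-73521282, minus strand): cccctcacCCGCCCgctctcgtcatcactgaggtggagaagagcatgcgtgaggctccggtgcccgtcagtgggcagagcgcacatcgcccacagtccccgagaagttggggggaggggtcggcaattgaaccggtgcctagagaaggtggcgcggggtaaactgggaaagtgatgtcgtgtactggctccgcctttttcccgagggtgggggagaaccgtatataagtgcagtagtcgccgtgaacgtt
IBTK has 2 GC boxes and 1 CCAAT, POU3F2 has 2 of each, ELOVL5 has 2 CCAAT and 1 E-box, and EEF1A1 has 1 GC box. Of the 178 genes of the stretch with tested RNA, 141 matched the RefSeq table by symbol, with 208 promoters between them. GGGCGG was found in 67.3% of those 208 promoters and in 42.6% of all 35116 promoters in the table, which also holds genes silent in these cells. CCAAT was found in 28.4% against 32.0%, TATAAA in 4.81% against 10.7%, CCGGAA in 24.0% against 14.5%, and CACGTG in 9.13% against 6.34%. These matches are letters in a window and not measured binding sites. All other positions here are in GRCh37-type coordinates, as in the deposited files.

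The UBR7KO libraries placed a larger share of their open regions in the stretch than the parental libraries did. UBR7KO 1 had 228 of its 15275 regions there (1.49%, exact 95% binomial interval 1.31 to 1.70%) and UBR7KO 2 had 752 of 45470 (1.65%, 1.54 to 1.78%). Parental 1 had 120 of 10486 (1.14%, 0.950 to 1.37%) and parental 2 had 463 of 38234 (1.21%, 1.10 to 1.33%). Both UBR7KO shares lay above both parental shares, and the number of regions called differed more between replicates 1 and 2 than between genotypes. The share was 1.30 times the parental one in replicate 1 and 1.37 times in replicate 2, a mean log2 ratio of 0.42 (SD 0.0469, n = 2 replicate numbers). On the rest of chromosome 6 the log2 ratios were 0.13 and 0.12. None of the 23 chromosomes compared as a whole exceeded the stretch in both replicates, which the choice of the stretch fixes in part. Above 0 in both were 3 of them: chromosome 6 itself, chromosome 13 (0.25 and 0.34) and chromosome 21 (0.14 and 0.10). The intervals cover counting error only. The read depth of the ATAC libraries is not given in the sources used here, no measure of DNA copies per cell was used, and peak calls count fragments of DNA. Taking the same number of peaks from each library lowered the mean log2 ratio to 0.26. Keeping only peaks with a −log10 q of at least 2 raised it to 0.84, from unlike values of 1.16 and 0.52 in replicates 1 and 2. In that setting replicate 1 rested on 34 regions in UBR7KO 1 and 8 in parental 1.

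The excess ran along the whole stretch and past its upper edge. Bins of 10 Mb were counted if they held at least 20 regions in every library and at least 10 tested genes. Both replicates were above 0 in 5 of 5 such bins of the stretch and in 35 of 233 elsewhere (15.0%). The choice of the stretch fixes this count in part. The bin from 60 to 70 Mb, next to the centromere and poor in genes, held only 9 and 71 regions in UBR7KO 1 and 2, against 4 and 25 in parental 1 and 2, and was not counted. Just inside the lower edge, at 40 to 50 Mb, the log2 ratios of replicates 1 and 2 were 0.79 and 0.21, and just outside, at 30 to 40 Mb, 0.48 and −0.07. Just inside the upper edge, at 90 to 100 Mb, they were 0.27 and 0.40, and just outside, at 100 to 110 Mb, 0.24 and 0.53. The 30 Mb beyond the upper edge thus had ratios much like those of the stretch, 0.33 and 0.54 from 100 to 130 Mb. Beyond 130 Mb they were −0.19 and −0.05. From 0 to 40 Mb they were 0.27 and 0.06.

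**Figure D1:**
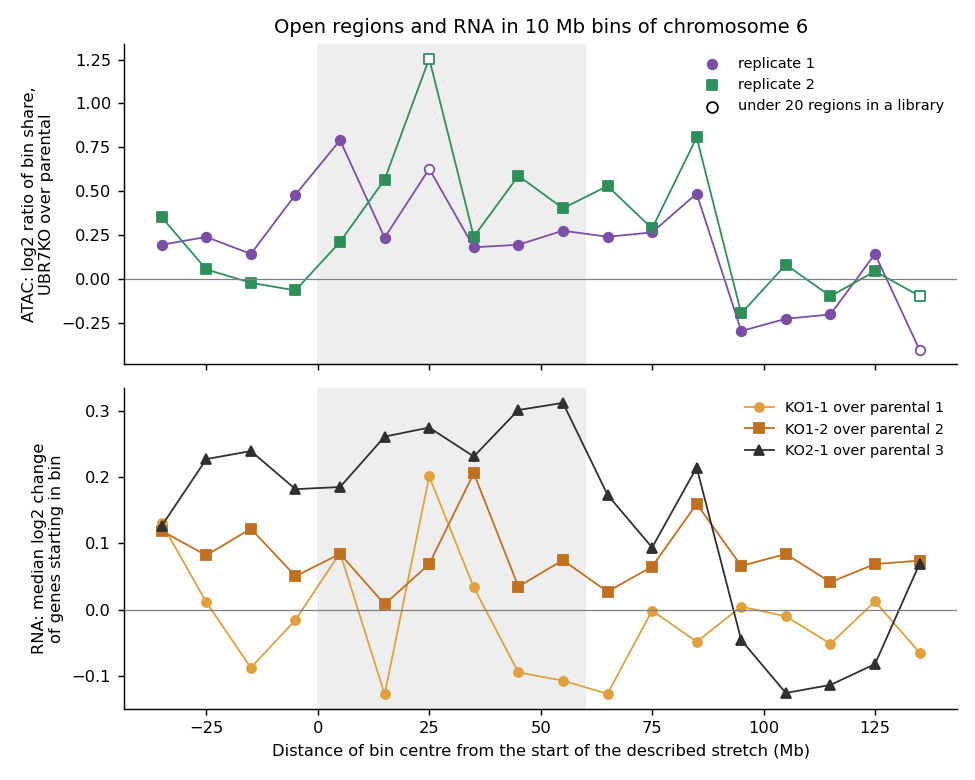
Chromosome 6 in 10 Mb bins, with the described stretch shaded and the x axis in Mb from its start. The upper panel gives the log2 ratio of the bin's share of regions, UBR7KO over parental, per replicate, with open symbols for bins under 20 regions in a library; the lower panel gives the median log2 RNA change of genes starting in the bin for each knockout library over its parental partner. Both ATAC replicates and the KO2-1 pair lie above 0 through the shaded stretch, KO1-1 lies on both sides of 0, and KO1-2 lies between 0.01 and 0.21.

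Distance from gene starts divided the stretch: the shares of UBR7KO and parental libraries were close at gene starts, and far from them the UBR7KO shares were higher. Within 1 kb of a start there were 180 regions, of which UBR7KO 1 and 2 held 149 and 174 and parental 1 and 2 held 99 and 165. As shares of each library's regions of that class over the genome, these were 1.48% and 1.42% in UBR7KO, against 1.28% and 1.41% in parental cells, or 1.16 and 1.01 times. Between 1 and 10 kb there were 45 regions, with 9 and 36 in UBR7KO and 3 and 25 in parental libraries. These were 1.51 and 1.18 times the parental share. Between 10 and 100 kb there were 259 regions. UBR7KO libraries held 31 and 215 of them and parental libraries held 8 and 116, or 2.03 and 1.57 times the parental share. Beyond 100 kb there were 387 regions, with 39 and 327 in UBR7KO and 10 and 157 in parental libraries, or 2.06 and 1.54 times. The parental 1 counts away from starts are small, 3 to 10 regions per class. All regions beyond 10 kb gave a mean log2 ratio of 0.84, a grouping chosen after the data were seen. In the rest of the genome, regions within 1 kb made up 65.9% and 26.9% of the regions found in UBR7KO libraries 1 and 2, against 74.0% and 30.6% in parental libraries 1 and 2, so a lower share at gene starts in UBR7KO was not confined to the stretch. Inside it the shares were 65.4% and 23.1% in UBR7KO, against 82.5% and 35.6% in parental libraries.

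**Figure D2:**
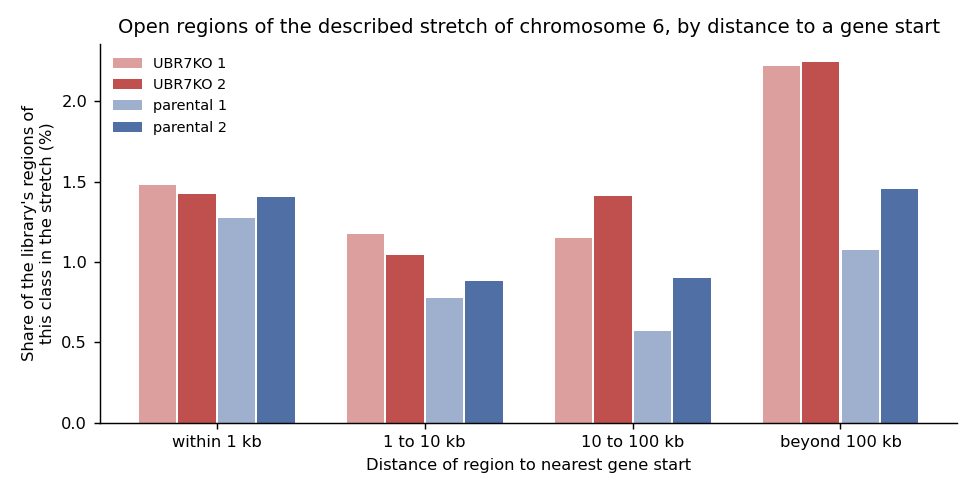
Share of each library's regions of a distance class that lie in the described stretch, in percent (bars from 0), for 2 UBR7KO and 2 parental libraries; pale bars are replicate 1 and full bars replicate 2. The 4 bars within 1 kb lie between 1.28% and 1.48%. Both UBR7KO bars stand above both parental bars in every class, by the most in the 2 classes beyond 10 kb. Within 1 kb the order is close, at 1.42% in UBR7KO 2 against 1.41% in parental 2.

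Many regions of the stretch were found in 1 library only, mostly replicate 2 of either genotype, which had the longer peak lists. UBR7KO 2 alone held 379 of the 871 regions (43.5%, against 32.1% of regions in the rest of the genome), and parental 2 alone held 103 (11.8% against 20.9%). Regions found in at least 1 UBR7KO and no parental library numbered 406, or 46.6% of the stretch, against 34.5% of the 59275 regions of the union. Regions found in at least 1 parental and no UBR7KO library numbered 104, or 11.9%, against 21.6% of the union. Regions found in both UBR7KO and no parental library numbered 12 (1.38%, against 0.992% of the union), and none was found in both parental and no UBR7KO library, where the union held 98 (0.165%). All 4 libraries shared 113 regions (13.0% of the stretch, against 14.9% in the rest of the genome). The count of 12 was 0 with peaks of −log10 q of at least 5 (against 0.446% in the rest of the genome). It was 23 when a library had to cover 50% of a region (2.64%, against 1.86%). In the authors' replicate-intersected sets, a different base, 107 of 218 UBR7KO regions had no parental counterpart (49.1%, against 39.9%).

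**Figure D3:**
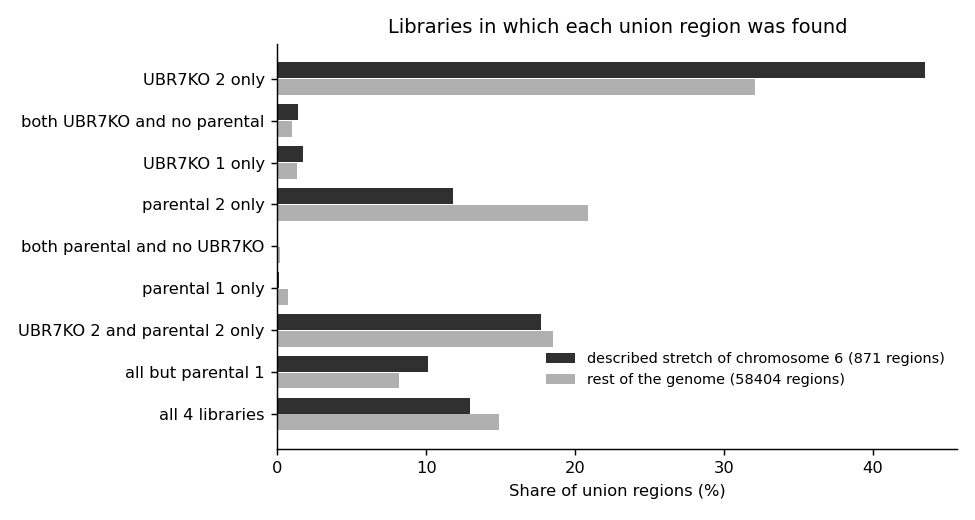
Share of union regions (percent) with each pattern of libraries, for the described stretch (dark) and the rest of the genome (grey). UBR7KO 2 only is the longest bar in both, at 43.5% in the stretch and 32.1% elsewhere, while parental 2 only is 11.8% and 20.9%.

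Of the 12 regions found in both UBR7KO and no parental library, 4 lay within 1 kb of a start and 2 of those at starts of genes with tested RNA. At both of these genes, another region within 1 kb of the start was found in parental 2, so the start itself was open in all but parental 1. The first, of 918 bp at 43738854 to 43739771, lies 933 bp inside VEGFA, the gene of a growth factor for blood vessels. Its −log10 q was 0.983 and 1.14 in UBR7KO 1 and 2, so the peak was weak in both. The second, of 525 bp at 46702697 to 46703221, lies 209 bp from the start of PLA2G7, a secreted phospholipase, with −log10 q of 0.538 and 3.37. VEGFA had 83.1, 57.7 and 25.4 CPM in KO1-1, KO1-2 and KO2-1, against 107, 54.3 and 21.9 CPM in parental 1, 2 and 3, with overlapping groups. PLA2G7 had 3.33, 6.24 and 1.71 CPM in the same UBR7KO libraries, against 3.03, 5.96 and 1.99 CPM in the parental ones, and the groups overlapped too. The other 8 regions away from starts included one at 80085683 to 80085855, 141277 bp from HMGN3, a nucleosome-binding protein gene, with −log10 q of 0.735 and 4.94. Another, at 73121949 to 73122741, lies 208779 bp from KCNQ5, a potassium channel gene, with 1.85 and 1.66.

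Regions found in all 4 libraries were ranked by their mean −log10 q, which leaves out any region missing from a library, and the first 5 are described. The region of 705 bp over the start of UBR2 (42531422 to 42532126), a ubiquitin ligase that reads destabilising protein ends, had −log10 q of 3.79 and 6.81 in UBR7KO 1 and 2, against 0.614 and 0.988 in parental 1 and 2. Its peaks also covered more bases in UBR7KO, 599 and 584 bp against 401 and 471 bp. The region over the start of ELOVL5 (53212690 to 53214086), a fatty acid elongase whose promoter is printed above, had 0.830 and 5.06 in UBR7KO, against 1.97 and 4.37 in parental libraries. The region over the start of IBTK (82956878 to 82957958), printed above too, had 1.92 and 5.34 in UBR7KO, against 0.902 and 3.15. A region of 732 bp at 53412569 to 53413300 lies 2641 bp from the nearest listed start and 68468 bp from the outermost start of GCLC, the gene of a glutathione synthesis enzyme. It had 1.68 and 6.79 in UBR7KO, against 4.60 and 1.25. A region of 498 bp at 74098511 to 74099008, 72293 bp from MTO1, which modifies mitochondrial tRNAs, had 0.839 and 8.95 in UBR7KO, against 0.717 and 0.792. At UBR2, IBTK and the region near MTO1, UBR7KO was above parental in both replicates, and at ELOVL5 and near GCLC the replicates went opposite ways. Of the 113 regions of the stretch found in all 4 libraries, 66.4% and 69.9% had the higher −log10 q in UBR7KO, in replicates 1 and 2. In the rest of the genome it was 58.5% and 67.1%. These q-values, and the bases that peaks cover, move with each library's depth.

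In the 113 regions open in all 4 libraries, UBR7KO peaks covered more bases. The bases covered were summed over a library's peaks within a region. Their median was 617 bp in UBR7KO 1 against 376 bp in parental 1, and 836 bp in UBR7KO 2 against 733 bp in parental 2. The 8681 such regions in the rest of the genome had 572 against 426 bp and 757 against 726 bp. UBR7KO peaks covered more bases than parental ones at 87.6% and 63.7% of these regions in the stretch, against 71.4% and 57.0% in the rest of the genome. The authors' replicate-intersected sets held 218 of 14517 regions in the stretch for UBR7KO (1.5%) and 118 of 9933 for parental cells (1.19%). Peaks of GFP-UBR7, from 1 ChIP library of cells whose UBR7 carries a GFP tag, numbered 55 in the stretch, or 0.933% of 5895. Of the 55, 50 overlapped an ATAC region. The overlap over all 5895 peaks was not counted here, so this cannot be read as particular to the stretch.

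RNA was read next for the genes that start in the stretch, to see whether their levels differed beside the open regions. The RNA libraries held between 22153291 and 29811908 reads. UBR7 RNA measured 27.0 and 26.3 CPM in KO1-1 and KO1-2 and 64.5 CPM in the library labelled KO2, against 55.0, 62.2 and 62.2 CPM in parental cells, so the KO2 library did not show less UBR7 RNA and its genotype rests on its label. Among 8 marker genes used for HEK293 cells, VIM, NEFM, NEFL, INA and KRT18 stood between 14.2 and 830 CPM over the 6 libraries, PAX2 and LHX1 between 0.721 and 3.81 CPM, and PAX8 had no row in the table used here. A set of 6 blood and endothelial markers had no row in the table used here. The table listed 187 genes starting in the stretch, of 14177 genes in all. Of these, 178 passed the filter of more than 1 CPM in at least 3 libraries, against 13697 of all genes, and 9 did not, among them FILIP1, CNR1 and MEI4. Of the 178, 162 are protein coding.

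In the KO2 pair most genes of the stretch were higher in KO2-1 than in parental 3. In bulk RNA, fewer cells with a transcript and less of it per cell cannot be told apart. Of the 178 genes, 149 were higher (83.7%, against 47.2% of all tested genes). Their median log2 change was 0.23, against −0.02 for genes elsewhere, and the middle range of genes ran between 0.08 and 0.40. In KO2-1, 18 genes were at least 1.5-fold above parental 3 (10.1%, against 3.89% of all tested genes) and 2 were as far below (1.12%, against 4.64%). The KO1 pairs showed none of this: KO1-1 over parental 1 had a median log2 change of 0.00 (0.000520), with 90 of 178 genes higher (50.6%, against 49.7%). KO1-2 over parental 2 had a median of 0.08, against 0.07 for other genes, with 116 higher (65.2%, against 62.5%). Over the 18 bins of chromosome 6, Spearman's rho between the ATAC ratio and the median RNA change of the KO2 pair was 0.523 and 0.624 for ATAC replicates 1 and 2. For the KO1 pairs it lay between −0.08 and 0.15. Over the whole genome, 238 bins had at least 20 regions per library and at least 10 tested genes. There the KO2 values were 0.373 and 0.222 for ATAC replicates 1 and 2. The KO1-1 values were 0.125 and −0.153, and the KO1-2 values were 0.021 and 0.169, the last close to the KO2 value for replicate 2. The 18 bins of chromosome 6 were taken without these limits, so the sets of bins are not alike. The bins share their libraries, and bins of the stretch, chosen by these same ATAC counts, are among them. These values are thus a description and no test of a link between ATAC and RNA.

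The low library was parental 3, and KO2-1 was not high. Measured as the median deviation of each gene from its mean over 6 libraries, minus that of other genes, the stretch stood at 0.04 and 0.10 (log2) in KO1-1 and KO1-2 and −0.01 in KO2-1. In parental 1 and 2 it stood at 0.06 and 0.07, and in parental 3 at −0.30, or 0.814 times the level of the other genes. Parental 3 was the lowest of the 6 libraries for 108 of the 178 genes (60.7%, against 24.6% of all tested genes), and KO2-1 for 19. Set against parental 1 or parental 2 in place of parental 3, KO2-1 had a median of the stretch minus that of other genes of −0.086 or −0.070, so the direction of the KO2 comparison turned. The summed level of the 178 genes was 33011, 30136 and 29729 CPM in KO1-1, KO1-2 and KO2-1, against 34605, 29217 and 22552 CPM in parental 1, 2 and 3. The same library was low on both flanks, by −0.20 before 40 Mb and −0.20 from 100 to 130 Mb, and stood at 0.00 (−0.00304) beyond 130 Mb. The cut at 130 Mb was fixed for RNA and ATAC alike, so where the level of parental 3 changed was not located separately. In bins, only the change of the KO2 pair was taken, which holds KO2-1 as well as parental 3. Its median was 0.21 from 120 to 130 Mb and −0.05 from 130 to 140 Mb. The ATAC log2 ratios of replicates 1 and 2 were 0.49 and 0.81, then −0.30 and −0.20. Whether the parental cells used for ATAC are the stock of parental 3 is not stated, and the part of the stock in the ATAC difference was not tested.

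**Figure D4:**
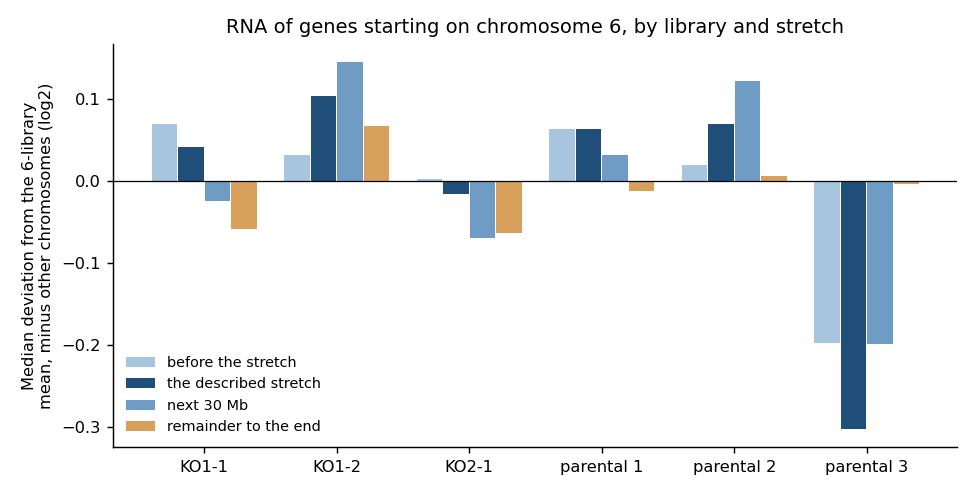
Median deviation of genes from their own mean over the 6 RNA libraries, minus that of genes on other chromosomes (log2), for 4 stretches of chromosome 6 in each UBR7KO and parental library. Parental 3 is the only library far below 0, at −0.30 in the described stretch and −0.20 on both flanks, and it returns to 0.00 in the last part of the chromosome.

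No gene of the stretch passed the test between UBR7KO and parental cells over all 6 libraries. With limma on log2(CPM + 1), 0 of 178 were called in either direction, as were 0.0% of all 13697 tested genes. At an unadjusted p under 0.05 there was 1 of the 178, COL12A1, against 70 of all 13697 genes, and edgeR's quasi-likelihood test and DESeq2 on recovered reads also called 0 of them. The median log2 change of the stretch was 0.11, against 0.01 for other genes, and without parental 3 the difference of the medians was −0.024. With the date pair as a block there were also 0 calls, and 10 of the 178 genes at an unadjusted p under 0.05, against 755 of all 13697, a similar rate. The authors' deposited table likewise had 0 of the 178 genes at an adjusted p under 0.05, with log2 fold changes between −2.17 for COL12A1 and 1.13 for NT5E.

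Groups that did not overlap were few. In 6 genes all 3 UBR7KO libraries lay above all 3 parental ones (3.37%, against 1.25% of all tested genes), and in 1 gene, COL12A1, all lay below (0.562%, against 1.23%). The 6, named after their values were seen, were UBR2, MED20, SLC35B2, DLK2, LINC00472 and RIMS1. UBR2, whose start held the strong region described above, had 79.3, 71.3 and 67.6 CPM in KO1-1, KO1-2 and KO2-1, against 66.9, 67.2 and 56.3 CPM in parental 1, 2 and 3. The gap between the groups was small, and its log2 change of 0.19 had a limma adjusted p of 1.00. DLK2, a Notch-related membrane protein, had 4.24, 4.39 and 3.92 CPM, against 3.17, 2.98 and 3.19 CPM in parental libraries, and its start was open in UBR7KO 2 alone.

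In the 2 dated pairs, which hold only line KO1, limma called 0 of the 178 genes, with 1 at an unadjusted p under 0.05 against 218 of all genes, and edgeR and DESeq2 called 0. With the date pair as a block it called 1 gene higher, NT5E, while 2.23% of all tested genes were called higher and 1.36% lower. NT5E, the ecto-enzyme CD73 that makes adenosine outside the cell, had 4.58 and 4.36 CPM in KO1-1 and KO1-2, against 2.3 and 1.53 CPM in parental 1 and 2. KO2-1 had 0.805 CPM, against 0.549 CPM in parental 3. The dated values did not overlap, and with the block the log2 change was 0.92 at an SE of 0.21 and a limma adjusted p of 0.0136.

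The KO2 pair differed from the KO1 pairs at 9 genes of the stretch. At 7 genes the log2 change was higher in the KO2 pair than in the KO1 pairs (3.93%, against 1.71% of all tested genes), and at 2 it was lower (1.12%, against 3.32%). The 7 were IBTK, POU3F2, SLC25A27, USP49, SMAP1, PNISR and PTP4A1, and the 2 were COL12A1 and RNU2-61P. IBTK, a binding partner of Bruton's tyrosine kinase, had 55.3, 64.0 and 52.4 CPM in KO1-1, KO1-2 and KO2-1, against 77.9, 81.3 and 29.1 CPM in parental 1, 2 and 3. The UBR7KO values lay between parental 3 and the other parental libraries. In log2 terms the pairs differed by 1.24, with an SE of 0.21 and a limma adjusted p of 0.000506. POU3F2, a neural transcription factor, had 27.2, 36.0 and 46.7 CPM in UBR7KO, against 29.3, 48.3 and 23.2 CPM in parental libraries, a difference of 1.24 (SE 0.24, limma adjusted p = 0.00191). Parental 3 was the lowest of all 6 libraries for every one of the 7 but SMAP1. A low parental 3 value raises the tested difference, so this follows in part from the selection. Over the stretch it was the lowest for 60.7% of genes, and over all tested genes for 24.6%. This test has 1 residual degree of freedom, rests on 1 KO2 library and cannot tell the line apart from the undated preparation; DESeq2 called 2 of the 178 genes, both higher.

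COL12A1, a collagen of the extracellular matrix, had 1.10, 0.981 and 0.604 CPM in KO1-1, KO1-2 and KO2-1, against 1.71, 1.63 and 8.00 CPM in parental 1, 2 and 3. Every UBR7KO value lay below every parental one, and parental 3 stood apart as the highest. The KO2 pair differed from the KO1 pairs by −2.10 (SE 0.37, limma adjusted p = 0.000666). Its start was open in every ATAC library but UBR7KO 1. RNU2-61P, a copy of the U2 small nuclear RNA, had 66.5, 23.0 and 5.57 CPM, against 113, 25.4 and 16.5 CPM in parental libraries. It shares sequence with other U2 copies, so its counts are uncertain.

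Among genes of at least 5 CPM, those furthest above parental 3 in KO2-1 were RP1-152L7.5, POU3F2, MYO6, DNPH1 and IBTK. MYO6, a motor that walks along actin, had 53.1, 68.7 and 43.0 CPM in KO1-1, KO1-2 and KO2-1, against 42.1, 57.1 and 23.1 CPM in parental 1, 2 and 3. Each UBR7KO library was above its own partner, and the groups overlapped. DNPH1, which hydrolyses damaged nucleotides, had 76.7, 45.7 and 58.9 CPM, against 60.5, 35.9 and 31.8 CPM in parental libraries. It too was above its partner in every pair, with a log2 change of 0.87 in the KO2 pair, against 0.34 in each KO1 pair. RP1-152L7.5, an annotated pseudogene, had 13.6, 14.5 and 7.51 CPM, against 9.74, 15.1 and 3.19 CPM in parental libraries. Those furthest below were COL12A1, RNU2-61P, ELOVL4, LMBRD1 and ME1. ME1, the cytosolic malic enzyme, had 37.2, 34.9 and 31.2 CPM in UBR7KO, against 26.3, 27.9 and 37.1 CPM in parental libraries. It was above its partner in both KO1 pairs and below it in the KO2 pair. ELOVL4, an elongase of very long fatty acids, and LMBRD1, which exports vitamin B12 from lysosomes, had log2 changes of −0.31 and −0.27 in the KO2 pair.

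**Figure D5:**
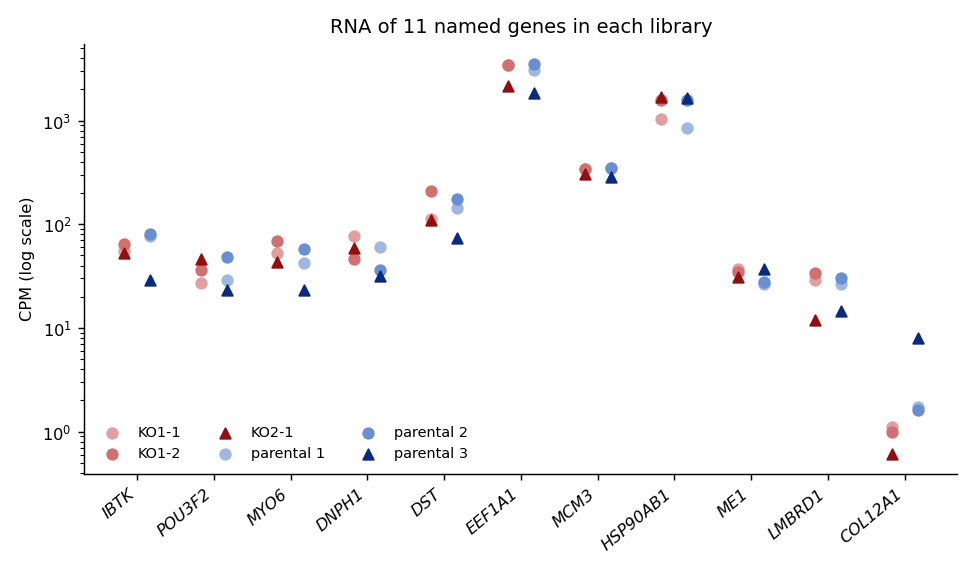
CPM (log scale) of 11 named genes in each RNA library, UBR7KO libraries left and parental libraries right within each gene; triangles are the undated KO2-1 and parental 3. For IBTK, POU3F2, MYO6, DNPH1 and DST the parental 3 triangle is the lowest of the 6 points, at 29.1 CPM for IBTK, and for COL12A1 it is the highest, at 8.00 CPM. All of these but DST were picked for their change between KO2-1 and parental 3.

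By function, every group of genes but the extracellular matrix was mostly higher in KO2-1 than in parental 3, none had a gene called over all 6 libraries, and the groups were read beside the 83.7% of the whole stretch. Of 13 genes of protein folding and degradation, 13 were higher, with a median log2 change of 0.34. Parental 3 was the lowest library for 10 of the 13, against 60.7% of the whole stretch and 24.6% of all tested genes. HSP90AB1, a cytosolic heat shock protein, had 1033, 1568 and 1680 CPM in KO1-1, KO1-2 and KO2-1, against 841, 1568 and 1655 CPM in parental 1, 2 and 3, nearly equal within the KO2 pair. BAG2, a co-chaperone, had log2 changes of 0.58 in the KO2 pair and −0.22 and −0.02 in the KO1 pairs. USP49, a deubiquitinase, and PTP4A1, a phosphatase of the same list, were the 2 of its genes called in the difference between lines.

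Of 12 genes of RNA handling and translation, 12 were higher in KO2-1 than in parental 3, with a median of 0.19. Yet parental 3 was the lowest library for only 4 of the 12, against 60.7% of the whole stretch and 24.6% of all tested genes. EEF1A1, the translation elongation factor whose promoter is printed above, had 3480, 3436 and 2161 CPM in KO1-1, KO1-2 and KO2-1, against 3094, 3556 and 1859 CPM in parental 1, 2 and 3. Both undated libraries lay below the 4 dated ones, so the level followed the pair more than the genotype. SYNCRIP, an RNA-binding protein, had 148, 304 and 326 CPM, against 167, 313 and 268 CPM in parental libraries. RPL7L1 had log2 changes of 0.20 in the KO2 pair and −0.13 and −0.02 in the KO1 pairs, and MDN1, an ATPase of ribosome assembly, had 0.31, −0.19 and 0.50. EEF1A1 and HSP90AB1 have many processed copies in the genome, so their counts may hold or lose reads of these.

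Of 9 genes of DNA replication and the cell cycle, 7 were higher in KO2-1 than in parental 3, with a median of 0.18. MCM3, a subunit of the replicative helicase, had 344, 344 and 303 CPM in KO1-1, KO1-2 and KO2-1, against 348, 353 and 284 CPM in parental 1, 2 and 3. TTK, the spindle checkpoint kinase, had 110, 144 and 106 CPM, against 120, 141 and 84.0 CPM in parental libraries. CDC5L, a splicing factor, had log2 changes of 0.32 in the KO2 pair and 0.16 and 0.04 in the KO1 pairs, and CCND3, a G1 cyclin, had −0.02, 0.16 and 0.24. For 6 of the 9, parental 3 was the lowest library, near its 60.7% over the whole stretch and against 24.6% of all tested genes.

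Of 17 transcription and chromatin factors, 15 were higher in KO2-1 than in parental 3, with a median of 0.27. POU3F2 was called in the difference between lines. Parental 3 was the lowest library for 10 of the 17, against 60.7% of the whole stretch and 24.6% of all tested genes. PHF3, a protein that binds RNA polymerase II, had 154, 271 and 178 CPM in KO1-1, KO1-2 and KO2-1, against 135, 274 and 142 CPM in parental 1, 2 and 3. NFYA, a subunit of the factor that binds CCAAT, had log2 changes of 0.38 in the KO2 pair and 0.41 and 0.14 in the KO1 pairs. Of 18 metabolic and mitochondrial genes, 15 were higher, with a median of 0.21, and parental 3 was the lowest library for 10. ELOVL5 had 147, 235 and 140 CPM, against 108, 237 and 119 CPM in parental libraries. SLC25A27, a mitochondrial carrier of the uncoupling protein family, had 5.61, 9.26 and 4.76 CPM, against 10.2, 12.7 and 2.71 CPM.

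Of 18 genes of membrane traffic, cytoskeleton and signalling, 16 were higher in KO2-1 than in parental 3, with a median of 0.15. Parental 3 was the lowest library for 16, against 60.7% of the whole stretch and 24.6% of all tested genes. DST, a large linker of the cytoskeleton, had 114, 211 and 110 CPM in KO1-1, KO1-2 and KO2-1, against 144, 177 and 73.5 CPM in parental 1, 2 and 3. MAP3K7, a kinase of TGF-beta and inflammatory signalling, had log2 changes of 0.39 in the KO2 pair and 0.14 and 0.08 in the KO1 pairs. EPHA7, an ephrin receptor, was lower in the KO2 pair by −0.14. Of the 4 extracellular matrix genes measured, of 8 listed, 2 were higher and the median was 0.09. Parental 3 was the lowest library for 1 of these 4. VEGFA stands in this list and in the one before it. RN7SK, a noncoding RNA that holds back transcription elongation, had 21345, 17456 and 19361 CPM in UBR7KO, against 23315, 16772 and 13586 CPM in parental libraries, and its copies elsewhere in the genome make its counts uncertain.

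The RNA changes were also read by whether the gene's start was open, with no test of the differences. An ATAC region lay within 1 kb of the start of 144 and 160 of the 178 genes in UBR7KO 1 and 2, against 101 and 157 in parental 1 and 2. As shares these were 80.9% and 89.9%, against 56.7% and 88.2%. In the rest of the genome they were 71.1% and 83.5% in UBR7KO, against 56.2% and 81.1%. The 97 genes with a start open in all 4 libraries had a median log2 change of 0.26 in the KO2 pair, and the 47 open in all but parental 1 had 0.28. The 18 genes with no open start in any library had 0.14, among them EEF1A1. Starts were taken as the outermost annotated ends, so this group is partly a matter of annotation. The 10 genes open in UBR7KO 2 and parental 2 had 0.11, and the 3 open in all but UBR7KO 1 had 0.09. CRIP3 and DLK2, open in UBR7KO 2 alone, had a median of 0.58 at a median level of 2.35 CPM.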

How the data were processed

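HEK293T cells were profiled by ATAC-seq (4 libraries) and RNA-seq (6 libraries). The submitters' processing notes name Bowtie2 2.3.1, TopHat2 2.1.0, HTSeq 0.6.1, edgeR, MACS2, Trimmomatic 0.36, SAMtools 1.3.1, Picard and bedtools, but give no step for any of them, and name both hg19 and hg38. The deposited ATAC lists hold the broad peaks of each library, called singly by the authors, with their −log10 q. The score in the authors' replicate-intersected sets and in the GFP-UBR7 list was not used. The RNA values were deposited as CPM, reads scaled to a fixed library total. The authors' log2 fold changes and their adjusted p-values stand in the same table. CPM steps gave whole reads for 100% of values within 1e-06.

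Peaks were merged into union regions, and distance to a gene start was taken from the authors' list of starts and the outermost starts of the RNA table. limma 3.58.1 (R 4.3.3, trend and robust) was fitted on log2(CPM + 1) for all 13697 genes above 1 CPM in at least 3 libraries, with Benjamini-Hochberg adjustment over all of them and calls under 0.05. Fold changes are on that scale, which understates those of low genes. edgeR 4.0.16 (quasi-likelihood) and DESeq2 1.42.0 on recovered reads were alternatives. Date codes pair 2 of the 3 pairs; same-numbered libraries deviated together from their group means (correlations across genes 0.758, 0.736 and 0.633), so the date pair was also fitted as a block. Counts over regions were made in Python 3.11.15 with pandas 2.3.3 and numpy 2.4.6, intervals with scipy 1.17.1 and figures with matplotlib 3.10.9. The stretch, gene lists, rules and tests were chosen with earlier results of these data known. Named genes were the 10 with the highest mean CPM, the 5 furthest up and 5 furthest down in the KO2 pair with at least 5 CPM in 1 of its libraries, called genes, and the most expressed of each list. Some other genes of the lists, such as TTK, BAG2, NFYA, CCND3, MAP3K7 and EPHA7, met none of these rules and were picked as examples. Named regions were those in both UBR7KO and no parental library at tested starts and the 5 with the highest mean −log10 q. The regions near HMGN3 and KCNQ5 were picked as examples outside that rule. The level of 1 marker gene is not reported here.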

Additional observations from a re-analysis of the deposited data

Results flagged for a closer look

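The RNA change of the KO2 pair differed from that of the KO1 pairs at 9 genes of the stretch, by limma with the date pair as a block at an adjusted p under 0.05 over all tested genes. The differences, KO2 pair minus KO1 pairs on the log2 scale, were 1.24 for IBTK, 1.24 for POU3F2, 1.23 for SLC25A27, 1.19 for USP49, 0.88 for SMAP1, 0.78 for PNISR and 0.69 for PTP4A1. They were −0.97 for RNU2-61P and −2.10 for COL12A1. Each rests on a single KO2 library and its undated parental partner.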

How the results depend on the processing

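The stretch was chosen for its excess of UBR7KO peaks, and the settings reuse those peaks, which fixes the sign of the ratio in part. The mean log2 ratio of ATAC shares, UBR7KO over parental, was 0.42 and stayed above 0 in every setting that gave a mean. It was 0.84 for peaks of −log10 q of at least 2, 0.26 with the same number of peaks from each library, 0.74 when 50% of a region had to be covered, 0.48 over bases covered, 0.37 for 30 to 110 Mb, 0.31 for 0 to 130 Mb and 0.84 beyond 10 kb of a start. The settings at −log10 q of 2, 0 to 130 Mb and beyond 10 kb were chosen after seeing the data, as was the deviation of each RNA library. Replicates taken singly gave 0.38 to 0.45, and ignoring the replicate block gave 0.42, close to the main value by construction. ATAC libraries share only a replicate number. At −log10 q of at least 2, replicates 1 and 2 gave 1.16 and 0.52, and parental 1 held only 8 regions of the stretch. At −log10 q of at least 5, replicate 1 had 0 regions of the stretch in either group, so no mean could be given. Replicate 2 had 76 in UBR7KO and 10 in parental at that limit. The count of 12 regions in both UBR7KO and no parental library (1.38%, against 0.986% in the rest of the genome) was 0 at −log10 q of at least 5 (0.446%), 23 with 50% covered (2.64%, against 1.86%) and 107 of 218 with the authors' sets (49.1%, against 39.9%). With 1 replicate it was 115 to 392 (13.2%, against 10.8%, and 45.0%, against 33.3%). For RNA, the date pair as a block gave 1 call in the dated pairs, in place of 0, and changed no call over all 6 libraries. DESeq2 gave 2 calls for the KO2 pair minus the KO1 pairs, in place of 9. Without parental 3 the median of the stretch minus that of other genes over all libraries was −0.024, in place of 0.09. The median of the KO2 pair minus that of other genes, 0.25, was −0.086 and −0.070 with parental 1 and parental 2 in place of parental 3. Beyond what a left-out library or fewer peaks does by construction, the cause was not tested. Shallow replicate 1 peak lists limit counts away from gene starts.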
